A study of Rattus norvegicus with 24 samples.

Results

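Astrocytes are the glial cells that take up transmitter and potassium, feed neurons and wrap synapses and blood vessels. In the rodent forebrain they arise from radial glia after most neurons have been born, when the gliogenic switch brings nuclear factor I proteins and SOX9 to the genes of the astrocyte programme and cytokine, BMP and Notch signals turn these genes on. Around embryonic day 18 this switch has only begun in the cortex, and many astrocyte genes are also used by radial glia, by ependymal, choroid plexus or meningeal cells, or by neurons.

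The genes described here are 10 markers of the astrocyte lineage that were chosen by symbol, namely Sox9, Nfia, Aldoc, Aldh1l1, Gfap, S100b, Slc1a2, Gja1, Aqp4 and Sparcl1. All 10 were found among the 17420 genes of the deposited table, and all 10 belonged to the 12276 genes that were tested, those that averaged 10 or more estimated reads per pup. All 10 were measured above the offset of 0.0001 in 24 of 24 pups.

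The study asked whether 3 prenatal insults used as rat models of schizophrenia share changes in the fetal transcriptome. The developing neocortex and hippocampus of Sprague-Dawley rat pups were sequenced on embryonic day 18, with 24 pups in 4 groups of 6 and 3 pups from each of 2 litters in a group. Saline dams were injected on gestational day 17. MAM dams received 22 mg/kg of methylazoxymethanol acetate, a DNA-methylating agent that disrupts dividing cells, and Poly I:C dams received 7.5 mg/kg of polyinosine:cytosine, a double-stranded RNA mimic that triggers an antiviral immune response, both on gestational day 17 and 18 h before collection. Low Protein dams ate a diet with 6.1% protein from gestational day 11 to 18, and control dams ate a diet with 20.3% protein of equal energy. The methods leave the diet of the injected treated dams and any injection of the Low Protein dams unstated. The dam was treated and the pups were measured, so 3 pups share each treated animal, and the litter was read from the first number of the sample name. The estimated depth ran from 25.1 to 65.2 M (megareads) per pup. In bulk tissue, fewer cells of a type and less RNA per cell cannot be told apart.

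The labelled tissue showed its defining markers in every pup. Genes of cortical and hippocampal neurons summed to between 505.8 and 676.1 TPM per pup, with the neuronal tubulin Tubb3 at a mean of 251.2 TPM. Markers of neighbouring tissue were present too. Genes of the ganglionic eminence, which gives rise to interneurons, summed to 39.0 to 96.6 TPM, and choroid plexus genes summed to 33.0 to 248.6 TPM. Of the pups, 5 stood apart on such markers. Saline pup 2.1 had 96.6 TPM of ganglionic eminence genes against 46.0 to 62.4 TPM in the other saline pups, Low Protein pup 2.2 had 31.3 TPM of meningeal genes against 3.33 to 15.8 TPM in its group, and MAM pups 1.3 and 2.3 and Poly I:C pup 1.3 had 33.0 to 70.01 TPM of choroid plexus genes, where no other pup was below 125.3 TPM.

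The deposited TPM values fall with the genomic span of a gene, introns included, so that a long gene is listed low even where it draws many reads. Levels are therefore given per span as deposited, with estimated reads beside them. Per span, Aldoc, the brain aldolase of glycolysis in astrocytes and their precursors, had by far the highest level of the 10 genes, with a mean of 36.9 TPM ± 3.28 (SD, n = 6) in saline pups. It was 7.72 times the level of Sox9, the next gene in order. Sox9 had 4.78 TPM ± 0.433, Sparcl1 4.43 TPM ± 0.343 and Gja1 4.42 TPM ± 0.907, and these 3 did not separate, since each overlapped its neighbour in the order among saline pups. Gfap followed at 0.762 TPM ± 0.101 and stood clear of both its neighbours. S100b at 0.287 TPM ± 0.0366, Aqp4 at 0.251 TPM ± 0.0716, Aldh1l1 at 0.174 TPM ± 0.0397 and Nfia at 0.132 TPM ± 0.0262 formed a run in which each gene overlapped the next. Slc1a2 was lowest at 0.0329 TPM ± 0.00334 and did not overlap Nfia.

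**Figure D1:**
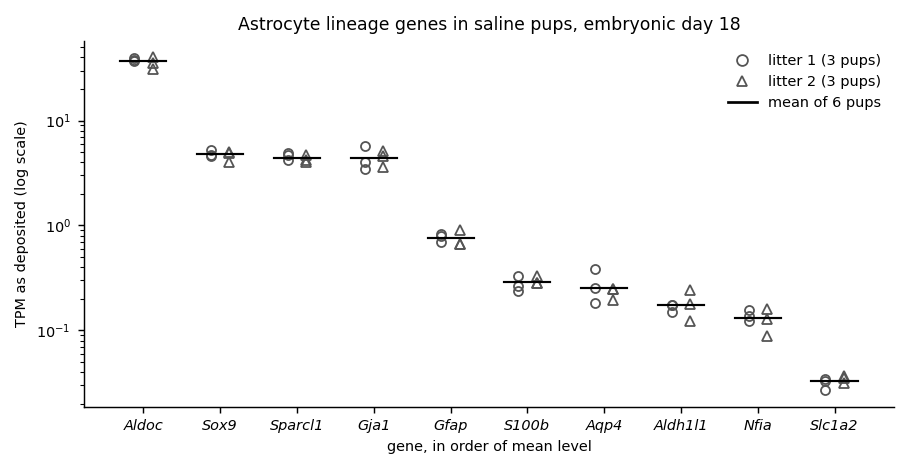
Level of the 10 astrocyte lineage genes in the 6 saline pups, in TPM as deposited on a log axis, with circles for litter 1, triangles for litter 2 and a bar for the mean. Aldoc stands at 36.9 TPM, 3 genes lie together between 4.42 and 4.78 TPM, and the remaining 6 are all below 1 TPM.

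By reads the order was another one. Over all 24 pups Aldoc drew 6648 estimated reads per pup on average, Sparcl1 6381, Nfia 3881, Gja1 3026 and Sox9 1441, whereas Gfap drew 350, Aldh1l1 331, Slc1a2 187, Aqp4 166 and S100b 119. Nfia, a transcription factor gene of very long introns, thus ranked near the bottom per span and near the top by reads. The genes known from mature astrocytes, Gfap, Aldh1l1, Slc1a2, Aqp4 and S100b, were measured with the fewest reads and hence with the widest counting error.

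Among genes of other lists, the 12 radial glia genes that astrocytes share ran from 1.17 TPM for Pax6 to 63.8 TPM for Fabp7. Fabp7, a fatty acid-binding protein of radial glia, had that mean over 24 pups from 19540 estimated reads per pup, and Vim, the intermediate filament vimentin, had 58.9 TPM from 24910 reads, against 0.809 TPM from 350 reads for Gfap, the filament that comes to replace vimentin as astrocytes mature. Slc1a3, the glutamate transporter of radial glia, which is named for this comparison after its values were seen, had 1.96 TPM from 7291 reads against 0.0293 TPM from 187 reads for Slc1a2, the transporter that mature astrocytes add. Of 26 further astrocyte genes, 25 were in the table and Hepacam was not analysed here. Per span the highest of these were Cst3 at 30.7 TPM from 6172 reads and Apoe at 24.3 TPM from 4829 reads. Both are also made by microglia, and by reads Mfge8 (6404) was highest. Among gliogenic signals and factors, Id3 and Hes5, targets of BMP and Notch signals, were highest per span. They had 20.5 TPM from 1643 reads and 13.0 TPM from 2247 reads, fewer reads than Notch1 (4033) or Jak1 (3894). Among genes of reactive astrocytes, Ptx3 at 3.43 TPM from 989 reads and Timp1 at 1.47 TPM from 449 reads were highest per span. S1pr3 drew more reads (835) than Timp1, and Serpina3n was listed at the offset in all 24 pups.

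The promoters of these genes are shown because one of the 10, Nfia, encodes a factor whose family binds the letters TTGGC. RefSeq promoter sequences of the GRCr8 build were matched for 9 of the 10 genes, all but Sox9, and the 250 bases before the annotated start were searched on both strands. The half-site TTGGC was found for 2 of the 9 genes at their first listed start, S100b and Sparcl1, and 40.3% of all 33469 promoters of that length hold it. The full palindrome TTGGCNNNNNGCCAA, which contains the half-site, and the STAT motif TTCNNNGAA were found in 0 of the 9, against 0.0359% and 7.67% of all promoters. The SOX motif AACAA was found for Sparcl1, against 39.0% of all promoters. The counts for the 9 genes use the first listed start, whereas the shares of all promoters use every listed start. A further start of Slc1a2 holds 1 half-site and 2 SOX motifs, and a further start of Aqp4 holds none of these motifs. The sequences below run 5′ to 3′ on the strand of the gene, with half-sites in capitals. They end 1 base before the start listed with the promoter. For Sparcl1 this start is the edge of the gene span. For S100b (span to 12381159) and Aldh1l1 (span from 124617182) the window reaches into the span, and both S100b half-sites lie inside it. The windows of Aqp4 and Gja1 also reach into their gene spans. The window of Nfia (chr5:117557030-117557279) lies wholly inside its gene span (117359006 to 117897391). S100b is on the minus strand at chr20:12381082-12381331, Sparcl1 on the plus strand at chr14:5937234-5937483, and Aldh1l1, which varied with S100b between pups but holds no half-site here, on the plus strand at chr4:124616970-124617219.
S100b: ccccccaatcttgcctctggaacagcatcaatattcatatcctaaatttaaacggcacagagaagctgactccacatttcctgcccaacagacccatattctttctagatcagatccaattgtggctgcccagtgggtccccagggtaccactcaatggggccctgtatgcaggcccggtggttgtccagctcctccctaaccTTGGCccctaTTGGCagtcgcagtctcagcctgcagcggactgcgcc
Sparcl1: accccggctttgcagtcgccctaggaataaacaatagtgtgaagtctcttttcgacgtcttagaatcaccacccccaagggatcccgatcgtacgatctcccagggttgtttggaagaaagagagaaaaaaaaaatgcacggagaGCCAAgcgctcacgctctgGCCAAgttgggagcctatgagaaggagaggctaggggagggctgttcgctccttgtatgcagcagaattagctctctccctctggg
Aldh1l1: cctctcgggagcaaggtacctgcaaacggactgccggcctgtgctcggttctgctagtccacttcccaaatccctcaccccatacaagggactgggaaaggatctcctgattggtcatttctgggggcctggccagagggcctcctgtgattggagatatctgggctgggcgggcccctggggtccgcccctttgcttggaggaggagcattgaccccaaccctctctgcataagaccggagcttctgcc
A match of letters is a description of the window and not a measured binding site.

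Each treated group was compared with saline by limma on log2 TPM over the 12276 genes. No member passed an adjusted p under 0.05 in any comparison, and over all genes 2 genes passed this threshold in MAM and 0 passed it in Low Protein or Poly I:C. A gene with an unadjusted limma p under 0.05 is termed called here. The study used this threshold for MAM, and for Poly I:C and Low Protein it also set a minimum fold change, which is not applied here. By this rule 1 of the 10 genes was called in Low Protein, where 7.27% of all genes were called. In MAM, 1 of 10 was called against 10.1% of all genes, and in Poly I:C 3 of 10 against 9.54%. A test for any difference among the 4 groups called 1 of 10 against 13.0%. The share called was near the background in Low Protein, MAM and the test of any difference, and rests on 3 genes in Poly I:C. In no comparison did the 6 treated pups lie wholly above or below the 6 saline pups for any member, while such a separation was seen for 0.456% of all genes in Poly I:C, 0.896% in MAM and 0.701% in Low Protein. The median log2 fold change of the 10 genes was -0.11 for Poly I:C, where that of all genes was 0.0040. It was -0.049 for MAM against -0.071, and -0.026 for Low Protein against -0.015. The 3 comparisons share the saline pups, so their values are set side by side only.

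**Figure D2:**
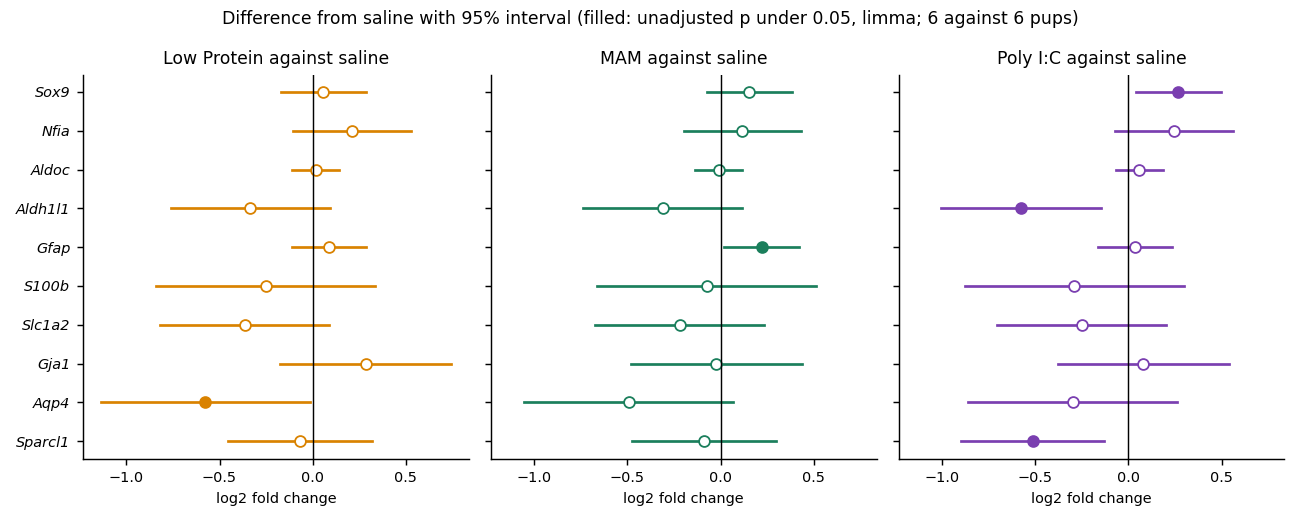
Log2 fold change of each gene against saline with its 95% interval from limma, 1 panel per treated group and 6 against 6 pups in each, with filled points for an unadjusted p under 0.05. Filled are Aqp4 in Low Protein, Gfap in MAM, and Sox9, Aldh1l1 and Sparcl1 in Poly I:C, and the intervals are narrowest for Aldoc.

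Transcription factors come first in the astrocyte programme, and both were measured with many reads. SOX9 is needed for the switch from neurons to glia and induces NFIA. Sox9 ran from 4.05 to 5.30 TPM in saline pups (median 4.84), 4.78 to 6.26 in Poly I:C (6.02), 4.63 to 6.08 in MAM (5.26) and 4.02 to 6.55 in Low Protein (4.95). The Poly I:C pups were the highest group, with 4 of 6 above every saline pup. The log2 fold change in Poly I:C was 0.27 (SE 0.110, limma adjusted p = 0.444), and an exact two-sided permutation test of 6 against 6 pups gave p = 0.0152, where the smallest possible p is 0.00217. Sox9 was not called in MAM, at 0.15 (95% interval -0.073 to 0.38), nor in Low Protein, at 0.055 (-0.17 to 0.28).

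Litters of a group differed in Sox9. In Low Protein, litter 1 had 5.83 TPM and litter 2 had 4.22 TPM without overlap, the litters of one group lying on both sides of the saline mean of 4.78 TPM. Poly I:C litter 2 had 6.21 TPM and litter 1 had 5.31 TPM, again without overlap. Leaving out Poly I:C litter 2 gave a log2 fold change of 0.15, and Sox9 was then no longer called at the unadjusted threshold (limma adjusted p = 0.933). Nor was it called with the 2 litter means of each group as the units (limma adjusted p = 0.804). The call was also lost without saline litter 1 (0.30, limma adjusted p = 0.627) and without saline litter 2 (0.24, adjusted p = 0.980). It was kept for 23 of 24 pups and 5 of 8 litters left out in turn.

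NFIA acts with SOX9 on astrocyte genes and is also made by young neurons. Nfia ran from 0.0883 to 0.161 TPM in saline (median 0.133), 0.0931 to 0.196 in Poly I:C (0.164), 0.124 to 0.168 in MAM (0.141) and 0.118 to 0.171 in Low Protein (0.155). All 4 groups overlapped broadly. Nfia differed from saline by 0.24 on the log2 scale in Poly I:C (95% interval -0.073 to 0.56), 0.12 in MAM (-0.20 to 0.43) and 0.21 in Low Protein (-0.11 to 0.52), with no call. The lowest saline pup was pup 2.1, which stood apart for ganglionic eminence genes, and the lowest Poly I:C pup was pup 1.3, which stood apart for choroid plexus genes. Without Poly I:C pup 1.3 the Poly I:C value was 0.39 and called (limma adjusted p = 0.233), and without the 5 pups that stood apart it was 0.28 and called (limma adjusted p = 0.475). Leaving out saline pup 2.1 gave 0.13 in Poly I:C, 0.0060 in MAM and 0.097 in Low Protein, with no call. With a trend on gene span removed from each pup, Nfia was called in all 3 comparisons, at 0.34 in Poly I:C, 0.29 in MAM and 0.33 in Low Protein (limma adjusted p = 0.328, 0.725 and 0.589). In MAM, litter 2 was above litter 1 without overlap, at 0.153 against 0.131 TPM.

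**Figure D3:**
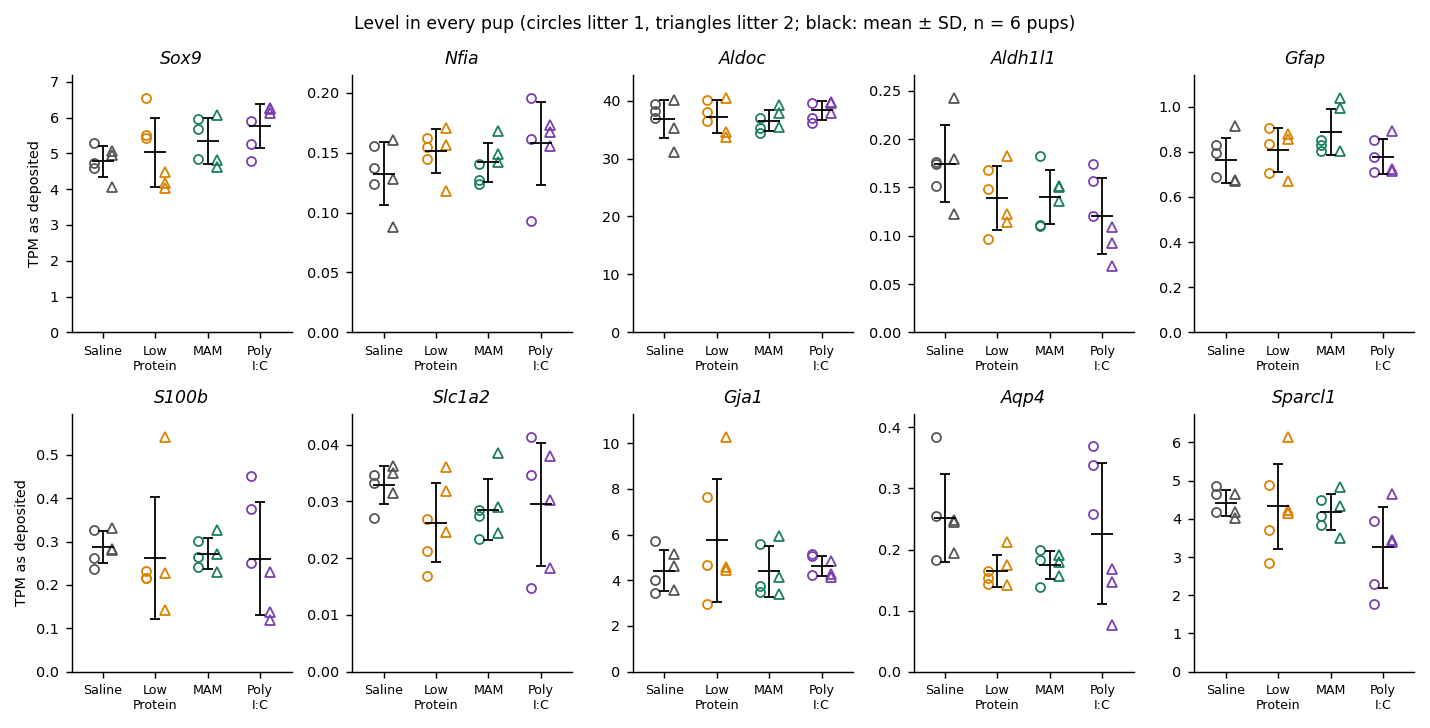
Level of each of the 10 genes in every pup, in TPM as deposited on linear axes from 0, by group, with circles for litter 1, triangles for litter 2, and the mean ± SD of 6 pups in black. Treated and saline pups overlap for every gene. The litters of Poly I:C separate for Aqp4, S100b, Aldh1l1 and Sox9, and single pups stand high for Gja1 and S100b in Low Protein.

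The metabolic enzymes behaved differently from each other. Aldoc was the steadiest of the 10, with 31.2 to 40.1 TPM in saline (median 37.6), 36.1 to 39.8 in Poly I:C (38.7), 34.5 to 39.2 in MAM (36.2) and 33.7 to 40.5 in Low Protein (37.3). Its SD within groups was 0.098 on the log2 scale, against a median of 0.138 for genes of like read number. Aldoc differed from saline by 0.059 on the log2 scale in Poly I:C (95% interval -0.067 to 0.19), -0.010 in MAM (-0.14 to 0.12) and 0.016 in Low Protein (-0.11 to 0.14), so that differences of more than 0.19 in either direction lie outside all 3 intervals.

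Aldh1l1, a folate enzyme used as a marker of astrocytes at all stages, ran from 0.123 to 0.243 TPM in saline (median 0.175), 0.0688 to 0.174 in Poly I:C (0.114), 0.110 to 0.182 in MAM (0.143) and 0.0970 to 0.183 in Low Protein (0.135). All 3 treated medians were below the saline median. Aldh1l1 in Poly I:C had a log2 fold change of -0.57 (SE 0.206, limma adjusted p = 0.384, exact permutation p = 0.0368). In Low Protein it was -0.34 (95% interval -0.76 to 0.092) and in MAM -0.31 (-0.74 to 0.12), neither of them called.

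The highest Aldh1l1 value of all, 0.243 TPM, was that of saline pup 2.1. Without this pup the Poly I:C value was -0.47 and still called (limma adjusted p = 0.694). The Poly I:C litters did not overlap, with 0.150 TPM in litter 1 and 0.0902 TPM in litter 2. With litter 2 left out the value was -0.20 and not called (limma adjusted p = 0.935), and with litter 1 left out it was -0.95 (limma adjusted p = 0.0360). Without the 5 pups that stood apart it was -0.49 and just outside the unadjusted threshold (limma adjusted p = 0.574).

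Gfap, the intermediate filament that defines mature and reactive astrocytes, was already measured in every pup. It ran from 0.670 to 0.915 TPM in saline (median 0.741), 0.712 to 0.891 in Poly I:C (0.750), 0.802 to 1.04 in MAM (0.842) and 0.669 to 0.906 in Low Protein (0.845). The MAM pups were highest on average, and 2 of the 6 were above every saline pup. The log2 fold change in MAM was 0.22 (SE 0.0967, limma adjusted p = 0.492), and the exact permutation test gave p = 0.0520. Without saline pup 2.1, the lowest saline pup for Gfap, the value was 0.19 and no longer called (limma adjusted p = 0.391). Nor was it called without MAM pup 2.1 (0.17, limma adjusted p = 0.413), MAM litter 2 (0.13, adjusted p = 0.825) or either saline litter. The call was kept for 19 of 24 pups and 5 of 8 litters left out in turn.

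In Low Protein Gfap differed by 0.087 (95% interval -0.11 to 0.29) and in Poly I:C by 0.036 (-0.16 to 0.24). Of the genes that reactive astrocytes switch on, 9 of 12 were tested, and none was called in MAM or Low Protein. For Poly I:C, Lcn2, a secreted iron-carrier binding protein, was lower, with a log2 fold change of -0.62 (SE 0.236, exact permutation p = 0.0346, limma adjusted p = 0.412) from 31.9 estimated reads per pup.

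S100b, a calcium-binding protein of astrocytes and of some oligodendrocyte precursors, ran from 0.236 to 0.330 TPM in saline (median 0.283), 0.120 to 0.452 in Poly I:C (0.240), 0.231 to 0.326 in MAM (0.268) and 0.141 to 0.541 in Low Protein (0.222). The saline and MAM pups lay close together. In Low Protein 5 of 6 pups were below every saline pup and pup 2.3 was above all of them, while Poly I:C pups lay on both sides of the saline range. No comparison was called, with a log2 fold change of -0.29 in Poly I:C (95% interval -0.88 to 0.30), -0.075 in MAM (-0.66 to 0.51) and -0.25 in Low Protein (-0.84 to 0.34). The highest value of all was that of Low Protein pup 2.3, where the next pup of its group had 0.232 TPM. Without this pup the Low Protein value was -0.49 and without pup 2.1 it was -0.10, neither called.

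Aqp4, the water channel of astrocyte endfeet, ran from 0.183 to 0.384 TPM in saline (median 0.247), 0.0768 to 0.369 in Poly I:C (0.213), 0.139 to 0.199 in MAM (0.181) and 0.142 to 0.212 in Low Protein (0.160). In Low Protein, 5 of 6 pups were below every saline pup, and in MAM 4 of 6 were. The log2 fold change in Low Protein was -0.58 (SE 0.271, limma adjusted p = 0.683, exact permutation p = 0.00866). In MAM it was -0.49 and was not called by limma (adjusted p = 0.518), while the exact permutation test gave p = 0.0152.

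The limma SE is drawn from all 4 groups, and Poly I:C has an SD of 0.856 on the log2 scale against 0.216 in Low Protein and 0.197 in MAM. With only the 12 pups of a comparison in the limma fit, Aqp4 was called in both MAM (adjusted p = 0.276) and Low Protein (adjusted p = 0.358). The call in Low Protein was lost with a replicate block (-0.58, limma adjusted p = 0.549), with litter means (-0.58, adjusted p = 0.906) and without saline pup 2.1 (-0.57, adjusted p = 0.883). In these settings the fold change hardly moved, and the values with the block and without this pup were just outside the unadjusted threshold. The call was also lost without the 5 pups that stood apart (-0.59, limma adjusted p = 0.807). It was kept for 13 of 24 pups and 2 of 8 litters left out in turn. The fold change then ran from -0.68 without saline litter 2 to -0.45 without saline pup 1.3.

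Aqp4 had a log2 fold change of -0.30 in Poly I:C (95% interval -0.86 to 0.26), and this mean covers a wide split between the litters. Litter 1 had 0.338, 0.258 and 0.369 TPM, and litter 2 had 0.169, 0.146 and 0.0768 TPM. The litters did not overlap, and they lay on both sides of the saline mean of 0.251 TPM. S100b split in the same direction, with a mean of 0.359 TPM in litter 1 and 0.162 TPM in litter 2, and so did Aldh1l1 as given above.

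Without Poly I:C litter 1, the log2 fold change against saline was -0.98 for Aqp4 (limma adjusted p = 0.0358) and -0.87 for S100b (adjusted p = 0.0888). Without litter 2 it was 0.38 for Aqp4 (limma adjusted p = 0.928) and 0.29 for S100b (adjusted p = 0.935). With 2 litters in the group, treatment and litter cannot be told apart for these genes. Litters separated for 4 of the 10 genes in Poly I:C, where 18.3% of all genes did. They separated for 1 of 10 in Low Protein against 17.3%, 1 of 10 in MAM against 6.47% and 0 of 10 in saline against 4.64%. Litter 2 of Poly I:C also had less of the ganglionic eminence genes, by -0.54 on the log2 scale, of the thalamic genes, by -0.60, and of the oligodendrocyte lineage genes, by -0.39, and more of the choroid plexus genes, by 1.15, and of the meningeal genes, by 0.56. The choroid plexus difference rests largely on pup 1.3 and was 0.42 without it, and the thalamic genes were highest in pup 2.2, a pup of litter 2, and lowest in pup 2.3. Their part in the split was not tested.

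Slc1a2, the glutamate transporter GLT-1, had the lowest level per span, with 0.0270 to 0.0363 TPM in saline (median 0.0339), 0.0147 to 0.0413 in Poly I:C (0.0324), 0.0234 to 0.0386 in MAM (0.0280) and 0.0168 to 0.0360 in Low Protein (0.0258). The saline pups lay close together and each treated group was wider. Slc1a2 differed from saline by -0.25 on the log2 scale in Poly I:C (95% interval -0.70 to 0.20), -0.22 in MAM (-0.67 to 0.23) and -0.37 in Low Protein (-0.82 to 0.086), with no call. The Low Protein value was called with only the 12 pups of this comparison in the limma fit (adjusted p = 0.519), and without Low Protein pup 2.3 it was -0.47 and called (limma adjusted p = 0.616). It ran from -0.62 without Low Protein litter 2, where it was called, to -0.11 without litter 1. The Poly I:C value was -0.070 without pup 1.3.

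Gja1, the gap junction protein connexin 43 of astrocytes, radial glia and meningeal cells, ran from 3.43 to 5.72 TPM in saline (median 4.34), 4.16 to 5.15 in Poly I:C (4.55), 3.38 to 5.94 in MAM (3.95) and 2.96 to 10.3 in Low Protein (4.62). The group means overlapped widely, and Low Protein held both the lowest and the highest pup of all 24. The log2 fold change in Low Protein was 0.28 (95% interval -0.18 to 0.74), and without Low Protein pup 2.2, the pup with 10.3 TPM, it was 0.093 (limma adjusted p = 0.947). Without Low Protein pup 1.3 it was 0.45 and called (limma adjusted p = 0.650), and with litter means it was 0.28 and called (limma adjusted p = 0.896). In MAM it was -0.022 (-0.48 to 0.44) and in Poly I:C 0.081 (-0.38 to 0.54).

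Sparcl1 encodes hevin, a secreted matrix protein that helps synapses form and is also made by endothelial cells. It ran from 4.01 to 4.87 TPM in saline (median 4.42), 1.78 to 4.64 in Poly I:C (3.42), 3.50 to 4.83 in MAM (4.20) and 2.86 to 6.14 in Low Protein (4.19). Of the Poly I:C pups, 5 of 6 were below every saline pup. The log2 fold change was -0.51 (SE 0.185, limma adjusted p = 0.388, exact permutation p = 0.0152). In Low Protein it was -0.068 (95% interval -0.45 to 0.32) and in MAM -0.088 (-0.47 to 0.30).

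Sparcl1 was the one member called between treated groups. It was higher in Low Protein than in Poly I:C by 0.44 (SE 0.185, limma adjusted p = 0.987), where 1 of 10 was called against 4.62% of all genes, and higher in MAM than in Poly I:C by 0.42 (adjusted p = 0.211), where 1 of 10 was called against 18.7%. Between Low Protein and MAM, 0 of 10 were called against 8.87%. Sparcl1 was also the member called for any difference among the groups (limma adjusted p = 0.373).

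The lowest Poly I:C pups for Sparcl1 were pups 1.3 at 1.78 TPM and 1.1 at 2.29 TPM, both of litter 1. Pup 1.2 of that litter had 3.96 TPM and litter 2 had 3.39 to 4.64 TPM, so the litters overlapped. Without pup 1.3 the log2 fold change was -0.35 and still called (limma adjusted p = 0.390). Without litter 1 it was -0.22 and not called (limma adjusted p = 0.526), and without litter 2 it was -0.80 and called (limma adjusted p = 0.928). Without saline litter 1 it was -0.47 and not called (limma adjusted p = 0.641). The endothelial genes summed to 40.9 to 48.9 TPM in Poly I:C litter 1, 53.7 to 68.8 TPM in litter 2 and 44.3 to 62.7 TPM in saline. Within litter 1 the sum was 40.89 TPM in pup 1.3, 48.86 TPM in pup 1.1 and 46.35 TPM in pup 1.2. Cldn5 made up most of this sum, with a mean of 54.1 TPM over 24 pups against 0.757 TPM for Kdr, the next gene. The mean log2 level of the 4 endothelial genes relative to saline was -0.56, -0.096 and -0.053 in pups 1.3, 1.1 and 1.2. The part of the endothelial genes in the Sparcl1 value was not tested.

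Between pups of a group, the 10 genes did not vary as 1 set. After group means were removed, the 45 pairs had a median Pearson r of 0.099 over 24 pups, 26 pairs were above 0, and 4 were above 0.5. These points share a library and its scaling within each pup, litters within groups, and the pups that stand apart, so the correlations are a description. The highest was Aqp4 with S100b at r = 0.73 (Spearman rho 0.59, r = 0.62 without the 2 pups farthest from the Aqp4 median). Aldh1l1 and Aqp4 had r = 0.69 (rho 0.65, r = 0.50 without 2 pups), and Aldh1l1 and S100b had 0.57 (rho 0.45, r = 0.42 without 2 pups). Aldoc and Nfia had r = 0.64 (rho 0.65, r = 0.59 without 2 pups). The lowest was S100b with Nfia at r = -0.48, which was -0.082 without 2 pups.

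Gja1 and Sparcl1 varied more between pups of a group than nearly all genes of like read number. Their SD on the log2 scale was 0.400 and 0.333, where the median of like genes was 0.139 and 0.136. Gja1 went with the meningeal genes (r = 0.83, rho 0.68, r = 0.64 without 2 pups), and Low Protein pup 2.2 was highest for both. Sparcl1 went with the endothelial genes (r = 0.77, rho 0.66, r = 0.60 without 2 pups), and the same pup was highest for both. Aldh1l1 went with the ganglionic eminence genes (r = 0.73, rho 0.72, r = 0.69 without 2 pups) and with the oligodendrocyte lineage genes (r = 0.67, rho 0.58, r = 0.57 without 2 pups). The latter were also close to Aqp4 (r = 0.67, rho 0.62, r = 0.52 without 2 pups) and S100b (r = 0.62, rho 0.64, r = 0.43 without 2 pups). Nfia went with the neuronal genes (r = 0.78, rho 0.71, r = 0.66 without 2 pups). It also went with the radial glia genes (r = 0.64, rho 0.73, r = 0.67 without 2 pups). With the gliogenic signals and factors it had r = 0.74 (rho 0.63, r = 0.57 without 2 pups). With the mean of 25 further astrocyte genes, Gja1 had the highest r of the members at 0.73 and Sox9 the lowest at -0.13. Of these markers only genes of the ganglionic eminence were put into the model of the groups, and the part of the others in the differences between groups was not tested.

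**Figure D4:**
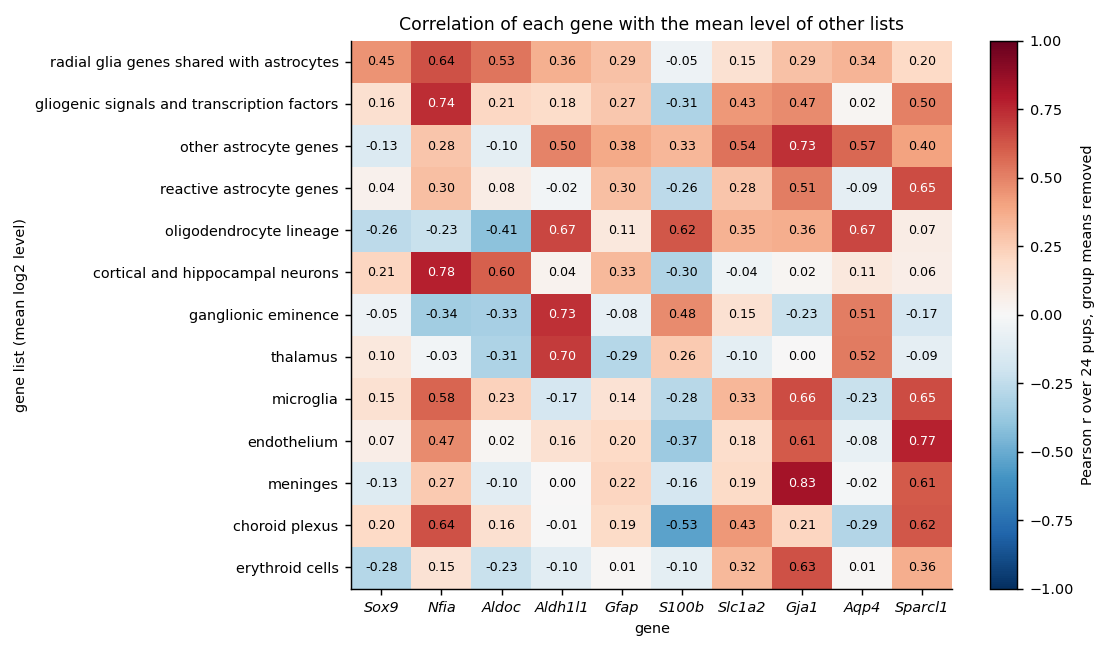
Pearson r of each gene with the mean log2 level of 13 other gene lists over 24 pups after group means were removed, with red above 0 and blue below. Gja1 with meningeal genes (0.83), Nfia with neuronal genes (0.78) and Sparcl1 with endothelial genes (0.77) are the strongest.

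**Figure D5:**
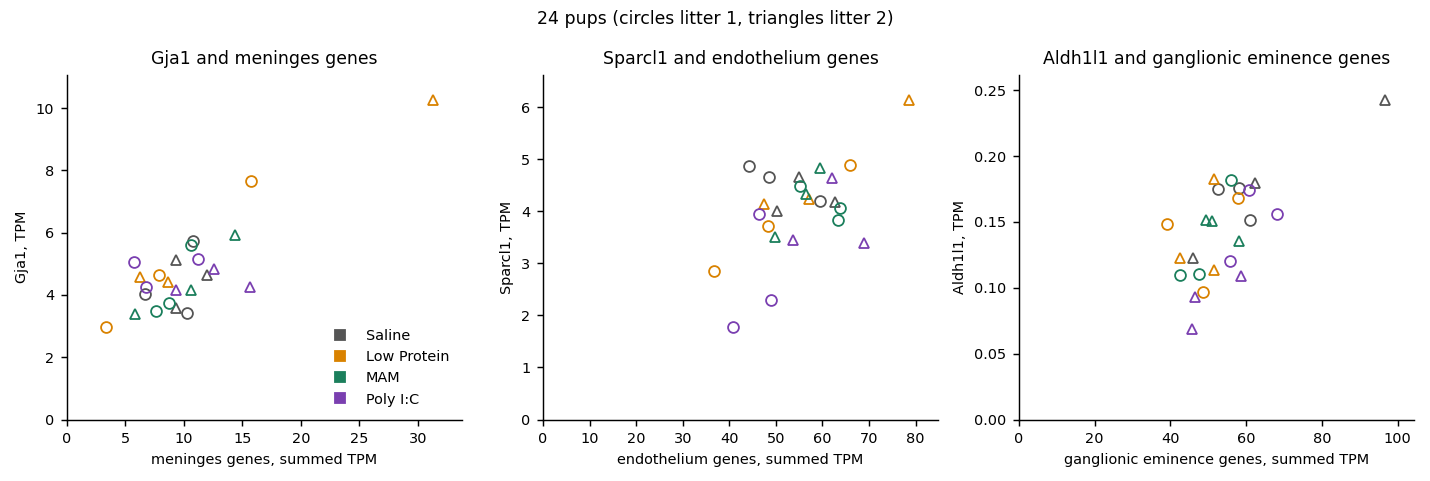
Gja1 against summed meningeal genes, Sparcl1 against summed endothelial genes, and Aldh1l1 against summed ganglionic eminence genes, in TPM on linear axes from 0, 1 point per pup, coloured by group. Low Protein pup 2.2 lies at the upper right of the first and second panels at 10.3 and 6.14 TPM, and saline pup 2.1 at the upper right of the third at 0.243 TPM.

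Of all genes tested, the one whose pattern over the 24 pups was most like a member, with group means removed, was Stx6 for Nfia (r = 0.97), Slc13a3 for Gja1 (0.96), Pcsk1 for S100b (0.91), Grin2d for Aldh1l1 (0.89), Emx2 for Aldoc (0.87), Ptgr2 for Aqp4 (0.87), Erbb4 for Slc1a2 (0.86), Itgal for Sparcl1 (0.83), Peg12 for Sox9 (0.73) and Stim2 for Gfap (0.71). None of the 10 was another member.

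The genes around the gliogenic switch were given by 4 further lists. Of 17 gliogenic signals and transcription factors tested, 1 was higher and 0 lower in Poly I:C, 1 higher and 3 lower in MAM, and 0 higher and 2 lower in Low Protein, at an unadjusted limma p under 0.05. Stat3, the factor that cytokines use to turn on Gfap, was lower in Low Protein by a log2 fold change of -0.20 (SE 0.0795, exact permutation p = 0.0260, limma adjusted p = 0.668) and in MAM by -0.20 (exact p = 0.0238, adjusted p = 0.492). In MAM, its kinase Jak1 was lower at -0.19 (exact permutation p = 0.0173, limma adjusted p = 0.482) and Smad1, which carries BMP signals, at -0.12 (exact p = 0.0238, adjusted p = 0.492). Hes1, a Notch target that holds back the differentiation of progenitors, was higher in MAM at 0.27 (exact permutation p = 0.0216, limma adjusted p = 0.492) and in Poly I:C at 0.23 (exact p = 0.121, adjusted p = 0.519). Cntfr, a receptor subunit for the cytokine CNTF, was lower in Low Protein at -0.19 (exact permutation p = 0.0541, limma adjusted p = 0.668). The median of this list was 0.029 for Poly I:C, -0.073 for MAM and -0.045 for Low Protein. For all genes it was 0.0040, -0.071 and -0.015 in the same order. Over all genes, 9.54% were called in Poly I:C, 10.1% in MAM and 7.27% in Low Protein. Of the 1238 genes called in MAM as deposited, 984 were lower, and this share depended on the scaling. These shares and this shift in MAM apply to the lists that follow as well.

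Of 12 radial glia genes that astrocytes share, 1 was higher and 0 lower in each comparison. Hopx, a marker of outer radial glia and of hippocampal stem cells, was higher in Low Protein at 0.42 (SE 0.131, exact permutation p = 0.0195, limma adjusted p = 0.646) and in MAM at 0.35 (exact p = 0.00649, adjusted p = 0.492). Pax6, the cortical progenitor factor, was higher in Poly I:C at 0.28 (exact permutation p = 0.0520, limma adjusted p = 0.439).

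Of 25 further astrocyte genes, 0 were higher in any comparison, and 2 were lower in Poly I:C, 1 in MAM and 2 in Low Protein. Gpc5, a cell surface proteoglycan, was lower in all 3, at -0.51 in Poly I:C, -0.55 in MAM and -0.56 in Low Protein (SE 0.232 in each, exact permutation p = 0.0823, 0.00433 and 0.0390, limma adjusted p = 0.501, 0.492 and 0.668), from 77.8 estimated reads per pup. Acsbg1, an acyl-CoA synthetase, was lower in Low Protein at -0.36 (exact permutation p = 0.00866, limma adjusted p = 0.646), and Cbs, which makes cystathionine, in Poly I:C at -0.46 (exact p = 0.00866, adjusted p = 0.360). The median was -0.045 for Poly I:C, -0.067 for MAM and -0.085 for Low Protein.

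Sox10, the factor of oligodendrocyte precursors, was lower in all 3 comparisons, at -0.54 in Poly I:C, -0.41 in MAM and -0.44 in Low Protein (SE 0.194 in each, exact permutation p = 0.0520, 0.0152 and 0.0390, limma adjusted p = 0.384, 0.492 and 0.679). Of 7 oligodendrocyte lineage genes, 2 were lower in Low Protein and 1 in each other group, and 0 were higher. Of the 6 ganglionic eminence genes, 0 were lower in Poly I:C, 3 in MAM and 4 in Low Protein. With the mean log2 level of Dlx1, Dlx2 and Dlx5 as a covariate, the log2 fold change of Aqp4 was -0.48 in Low Protein and -0.43 in MAM, neither called (limma adjusted p = 0.999 and 0.573), and that of Aldh1l1 in Poly I:C was -0.45 and still called (limma adjusted p = 0.626). For Aldh1l1 the same covariate took the MAM value from -0.31 to -0.13 and the Low Protein value from -0.34 to -0.063. Gfap in MAM was then at 0.20 and no longer called (limma adjusted p = 0.499).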

How the data were processed

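RNA from the neocortex and hippocampus of 24 pups was sequenced as stranded mRNA libraries with paired reads. The authors trimmed the reads, aligned them to rn6 with STAR (version 2.4.1d), quantified them against RefSeq transcripts in Partek Flow, and deposited 1 table of TPM values with an offset of 0.0001 added. Each pup's values add up to 70350.1 and are lower for genes of longer genomic span, so reads that lie in introns or in isoforms of other lengths are not told apart.

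Depth is not stored in the table. The value of 1 read was estimated per pup from the steps of low values times the genomic span of the gene in GRCr8, and 48.4 to 53.8% of low values per pup were whole reads within 0.05, where 10.0% would be by chance. Since a large share of values was not whole, no count model was used. In the tests the reads served only as a filter. Elsewhere they served to order the genes and to pick genes of like read number. Their error was not modelled. Of the genes, 410 had no span.

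The log2 TPM values were compared with limma (version 3.58.1, R version 4.3.3, lmFit and eBayes) in 1 model over the 24 pups with a term for group, with Benjamini-Hochberg adjustment over 12276 genes. The code was tested on simulated data. For single genes the difference in mean log2 value was also set against all 924 splits of 12 pups (exact permutation, two-sided). The labels do not state that pups are independent beyond the litter, and p-values measure the spread between pups. The study tested genes whose mean was above 1 in every group and that also met a reliability cutoff of its software. The mean rule alone gives 5086 genes here, which is not the number the study reported. Of the 10 members, 4 pass the mean rule (Gja1, Sparcl1, Aldoc and Sox9). This rule was therefore tried as an alternative only.

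Genes were named as all members, the 2 highest genes of each list, the genes of a list past an unadjusted p under 0.05, and the gene most like each member, and text names part of these. The members and lists were chosen with earlier results of these data known. Alternatives covered the filter, scaling, pseudocount, variance trend, pups in the fit, litter, a replicate block, a covariate from the Dlx genes, and omission of 1 pup (24 settings) or 1 litter (8 settings), which makes 46 settings. Leaving out the 5 pups that stood apart was chosen after seeing the data.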

Additional observations from a re-analysis of the deposited data

Results flagged for a closer look

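In Low Protein, S100b was 0.541 TPM in pup 2.3 and at most 0.232 TPM in the other 5 pups. On the log2 scale the gap was 0.631 of the range of the group, above Dixon's critical value of 0.625, and on the TPM scale it was 0.773. In Poly I:C, Nfia was 0.0931 TPM in pup 1.3 and at least 0.156 TPM in the other 5 pups, a gap of 0.695 of the range on the log2 scale and of 0.613 on the TPM scale, where it is below the critical value. This pup also stood apart for choroid plexus genes, at 33.0 TPM, and for Sparcl1, at 1.78 TPM. For the 10 genes in 4 groups, 40 sets of 6 log2 values were examined, of which 2 exceeded the critical value, and chance gives about 1 in 20, or 2 here.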

How the results depend on the processing

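The number of members called in Low Protein (1) became 0 with genes whose group means are above 1, where only 4 members could be tested, with a replicate block, with the Dlx covariate and without the 5 pups that stood apart, and 2 with a gene length offset and with only the 12 pups compared. In MAM (1) it became 0 with group means above 1 and with the Dlx covariate, and 2 with median of ratios scaling, a gene length offset and only 12 pups. In Poly I:C (3) it stayed within 1.5 times under the other alternatives. The count for any difference (1) became 0 without a filter, with a pseudocount of 1, litter means, the Dlx covariate and without the 5 pups, and 2 with median of ratios or upper quartile scaling. The calls between treated groups (2) became 4 with a gene length offset and 1 with litter means. The median of the members in Poly I:C was 0.070 with group means above 1. Leaving out pups or litters gave 1 to 5 calls in Poly I:C, 0 to 2 in MAM, 0 to 2 in Low Protein, 0 to 3 for any difference and 0 to 6 between treated groups, with medians of -0.16 to 0.090 in Poly I:C, -0.12 to -0.021 in MAM and -0.094 to 0.026 in Low Protein.

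Log2 fold changes near 0 turned their sign. Aldoc in Low Protein was -0.012 with the Dlx covariate and -0.0027 without the 5 pups, and -0.040 to 0.073 when pups or litters were left out. Gja1 in MAM was 0.032 with the upper quartile, 0.042 with median of ratios, 0.012 with a length offset and 0.079 without the 5 pups (left out -0.12 to 0.057), and Aldoc in MAM was 0.055 and 0.044 with both scalings (left out -0.067 to 0.047). In Poly I:C, Gfap was -0.027 without the 5 pups (left out -0.0043 to 0.091) and Gja1 was -0.014 with the Dlx covariate and -0.0020 without the 5 pups (left out 0.013 to 0.16). Left-out litters or pups also turned Sparcl1 (-0.24 to 0.11) and Sox9 (-0.18 to 0.29) in Low Protein, and Aqp4 (-0.98 to 0.38) and S100b (-0.87 to 0.29) in Poly I:C. The cause was not tested.

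Replicate numbers were examined as a possible pairing of pups across groups. Of 36 pairs of the same number in other groups, 14 correlated above 0.1, and the median r was 0.031. Of 180 pairs of other numbers, 34 correlated above 0.1, and the median r was -0.010. Only 4 of 24 pups correlated best with their own number. A pairing by number entered only as the replicate block, a term in the model for the pup number across groups. With this block, 3 members were called in Poly I:C, 1 in MAM and 0 in Low Protein. Over all genes, the share of calls that were higher in MAM was 20.5% as deposited, 59.7% with the upper quartile, 63.0% with median of ratios and 61.2% with a length offset. In the same order it was 36.4%, 34.0%, 50.6% and 50.9% for Low Protein, and 41.5%, 25.1%, 44.4% and 44.2% for Poly I:C. The genes of few reads, Gfap, Aldh1l1, Slc1a2, Aqp4 and S100b, are the ones that depth limits most.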

Other observations

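Markers of other cells were tested in the same fit. Of 10 genes of cortical and hippocampal neurons, 1 was called, Bcl11b, a factor of deep-layer neurons, which was lower in Low Protein (log2 fold change -0.29, exact permutation p = 0.0411, limma adjusted p = 0.679). Of 6 ganglionic eminence genes, Dlx1 (-0.29), Dlx5 (-0.38), Lhx6 (-0.48) and Gad1 (-0.47) were lower in Low Protein, and Dlx1 (-0.26), Lhx6 (-0.34) and Gad1 (-0.43) in MAM. In Low Protein their limma adjusted p was 0.668, 0.672, 0.646 and 0.672. The exact permutation p was 0.0411, 0.0801, 0.00866 and 0.0303 in the same order. In MAM none passed a limma adjusted p under 0.05. Saline pup 2.1 stood apart on these genes, with a mean log2 level of 0.71 relative to saline, where other saline pups had -0.48 to 0.060. Of 4 thalamic genes, Lhx2, which cortical progenitors also use, was higher in all 3 treated groups (0.28 for Poly I:C, 0.25 for MAM, 0.25 for Low Protein), and Lhx9 was higher in Poly I:C (0.48). No thalamic gene passed a limma adjusted p under 0.05. Of 6 microglial genes, C1qa, the first component of complement, was higher in MAM, where the 6 pups were all above the 6 saline pups (0.39, SE 0.172, exact permutation p = 0.00217, the smallest possible, limma adjusted p = 0.492). No gene of the endothelial list (4 genes), the meningeal list (5), the choroid plexus list (6) or the erythroid list (2) was called in any comparison with saline.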
